A study of Mus musculus with 9 samples.

Results

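Knockdown of Yap with the hairpin labelled shYap-1 was compared with a control hairpin, shCTRL, in 4T1 cells, a mouse mammary carcinoma line of BALB/c origin, by poly(A)-enriched RNA sequencing. Each arm held 3 libraries, and the genes described are those with at least 1 FPKM (fragments per kilobase, a level scaled to transcript length and to the number of mapped fragments) in 3 or more of these 6 libraries. This rule kept 10647 of the 16530 genes listed for the comparison, of which 10625 are protein-coding in the annotation. At the edge of the rule, 65 genes had a third-highest value from 1.0 to 1.1 FPKM and were kept, and 81 lay between 0.9 and 1.0 and were left out. The control libraries carry the genotype label WT and the treatment label Negative control, and the hairpin libraries are labelled as a knockdown of Yap. A second hairpin, shYap-2, was sequenced beside the same 3 control libraries and is used here only for side-by-side values. The labels give neither the hairpin sequences, the way they were delivered, the time after knockdown nor whether the 3 libraries of an arm came from separate cultures, so the p-values measure only the spread between these libraries, which may be technical.

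YAP, encoded by Yap1, is the transcriptional coactivator at the end of the Hippo pathway. The MST kinases activate the LATS kinases, which phosphorylate YAP and hold it in the cytoplasm. When they are inactive, YAP and its paralog TAZ, encoded by Wwtr1, enter the nucleus and bind TEAD factors, which drive genes of growth, matrix adhesion and the cytoskeleton. Cancer cells often depend on this arm of the pathway, and the title of the study places it beside antigen presentation by class I molecules of the major histocompatibility complex (MHC-I).

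Yap1 (ENSMUSG00000053110, chromosome 9 from 7931999 to 8004596 on GRCm38) read 49.3, 48.3 and 48.8 FPKM in the 3 shCTRL libraries and 8.03, 9.05 and 9.23 FPKM in the 3 shYap-1 libraries. All 3 hairpin libraries lay far below all 3 controls. The means were 48.8 ± 0.475 and 8.77 ± 0.647 FPKM (SD, n = 3), and the log2 fold change, computed as everywhere here on log2(FPKM + 1), was -2.35 (SE 0.0701, adjusted p = 9.30e-07 by limma with Benjamini-Hochberg adjustment over all 10647 genes). A two-sided exact permutation test of Yap1 alone gave p = 0.1, the smallest value that 3 libraries against 3 allow. Wwtr1, the paralog, read 31.97, 32.3 and 33.02 FPKM in shCTRL and 27.8, 28.2 and 27.4 with shYap-1, a log2 fold change of -0.22 (adjusted p = 0.00978) that lost its call after a correction of each library for GC content.

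Most genes moved between the arms. Of the 10647 genes, 6943 (65.2%) passed an adjusted p of 0.05: 4002 (37.6%) rose and 2941 (27.6%) fell, with a median log2 fold change of 0.07 over all genes tested. Changes of at least 1 on the log2 scale were rarer, with 944 genes (8.87%) that rose and 410 (3.85%) that fell by that much. At 2 or more on that scale there were 134 rises and 30 falls, and at 3 or more 30 rises and 3 falls. The groups did not overlap in 7578 genes (71.2%). These shares are the background against which every count below stands. Unless another unit is given, a value in parentheses after a gene, or after rose by or fell by, is a log2 fold change of shYap-1 over shCTRL.

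The first principal component, with 88.2% of the variance, separated the arms, and the second, with 7.57%, set shYap-1 replicate 2 apart at -19.8 against 12.2 and 9.6 for its fellows. That library was also the shallowest by an estimate from the steps of the FPKM values, at 19550000 fragments beside 22100000 to 28350000 in the others. Its share of FPKM from mitochondrially encoded genes was 2.01%, against 3.04% to 4.23% in the others. Each library's log2 value minus the mean of the other 2 of its arm was correlated with GC content across 8463 genes. Spearman rho was 0.737 for shYap-1 replicate 2, and -0.686 and -0.613 for replicates 1 and 3. Within an arm these differences are linked, so 1 deviating library gives its fellows the opposite sign. The shCTRL libraries stood at -0.435, 0.023 and 0.433. Several results that lean on shYap-1 replicate 2 are given with and without it. The median GC content of the genes that rose was 51.94%, of those that fell 48.25% and of those not called 48.05%. The part of GC content in the changes of single genes was not tested beyond the refit without its trend. Epithelial markers were present, with Epcam at 173, 168 and 175 FPKM in shCTRL and 161, 159.8 and 166 with shYap-1. Of 12 leukocyte markers in the table only Cd68 was tested, and the endothelial markers all lay under 0.05 FPKM.

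**Figure D1:**
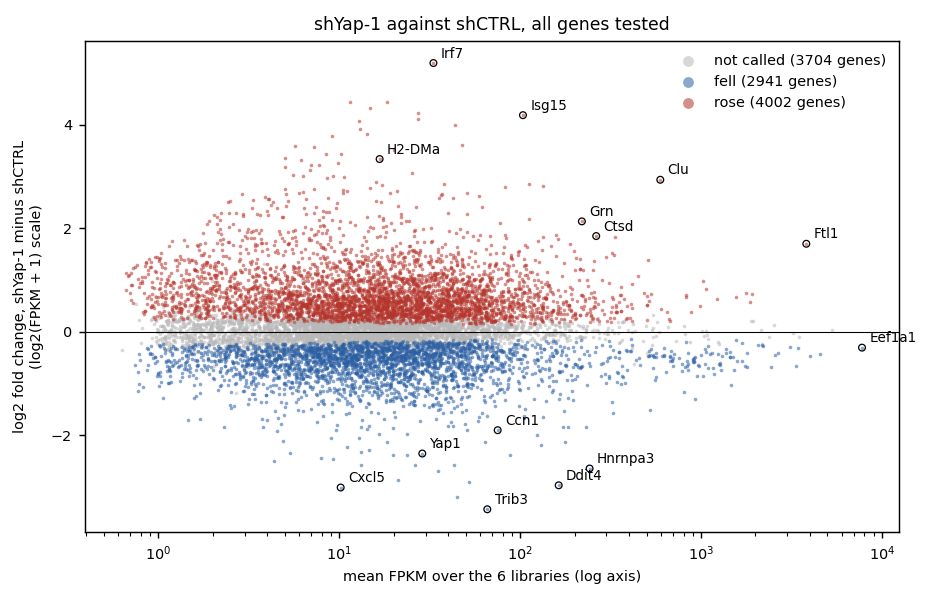
Each point is one of the 10647 genes tested, with its mean FPKM over the 6 libraries on a log axis and its log2 fold change (shYap-1 over shCTRL, log2(FPKM + 1)) on the vertical axis; coloured points passed an adjusted p of 0.05. The 4002 rises reach 5.19 at Irf7 and the 2941 falls reach -3.43 at Trib3.

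Direction differed between classes of abundance at the top of the range. The cytosolic ribosomal protein genes, of which 75 of 83 fell, summed to 99961 FPKM over the shCTRL means. Their part in the top class was not counted. Among the 147 genes with a mean of at least 500 FPKM, 94 (63.9%) fell and 23 (15.6%) rose, with a median log2 fold change of -0.41. Among the 1605 genes between 50 and 500 FPKM the shares were turned, with 45.3% that rose and 27.3% that fell. Genes under 50 FPKM stayed near the background.

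Of the 15 largest rises, 13 are on the lists of interferon-stimulated effectors, interferon-inducible GTPases, nucleic acid sensors or IRF and STAT factors, the others being Serpinb9b and Hist2h2aa2. Of the 15 largest falls, 10 are on the lists of the integrated stress response, amino acid transport, amino acid and one-carbon synthesis or chemokines and cytokines, and the others are Ciart, Pck2, Hnrnpa3, Idi1 and Vegfa. Irf7 (chromosome 7 from 141262706 to 141266481), the transcription factor that amplifies type I interferon production, read 0.61, 0.80 and 1.05 FPKM in shCTRL and 58.8, 72.3 and 65.4 with shYap-1. Its log2 fold change of 5.19 (adjusted p = 4.44e-07) was the largest under the naming rule, which required no overlap between the arms. Trib3 (chromosome 2 from 152337422 to 152344032), a pseudokinase induced by ATF4 and CHOP, read 120.4, 130.2 and 113 FPKM in shCTRL and 8.98, 12.6 and 9.70 with shYap-1. At -3.43 (adjusted p = 1.34e-06) it was the largest fall. In linear terms the largest gain was in Ftl1 (chromosome 7 from 45457944 to 45459884), the ferritin light chain, from 1778, 1766 and 1840.4 FPKM to 5604, 6231 and 5694 FPKM.

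**Figure D2:**
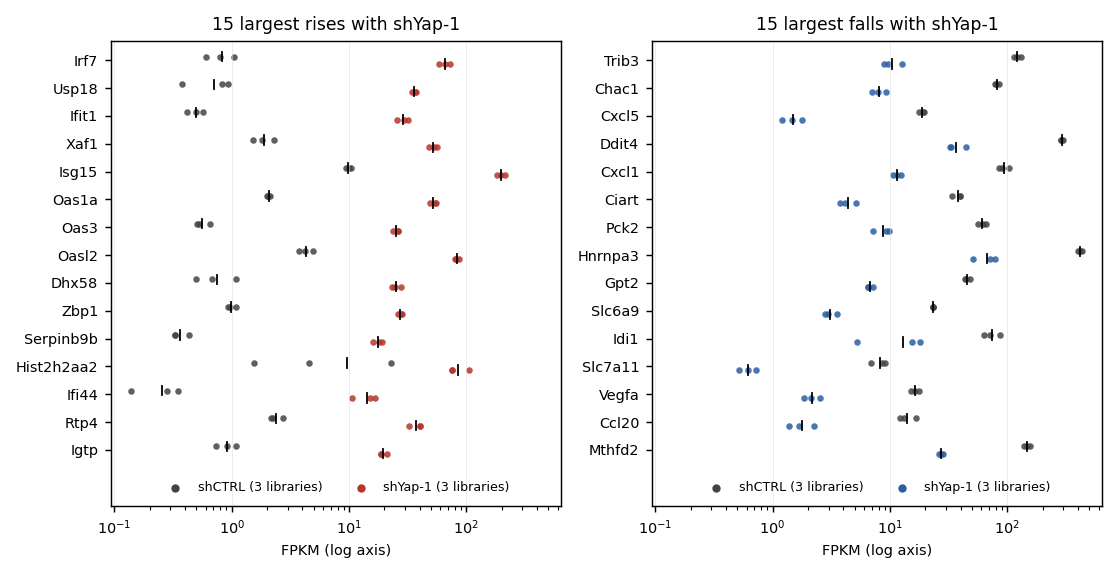
FPKM on a log axis in each of the 6 libraries (one symbol per library, coloured by arm) for the 15 genes with the largest rise and the 15 with the largest fall. The 30 genes were picked only among genes without overlap between the arms, so their separation was set by the choice. Hist2h2aa2 spreads the widest among its controls, from 1.56 to 22.7 FPKM.

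The YAP/TAZ target signature, a list of genes that other studies place under YAP, fell on balance. Of its 16 members tested, 11 fell and 2 rose, with a median log2 fold change of -0.76 beside 0.07 over all genes. Ccn1, a matrix-associated signalling protein and a standard YAP readout, read 116, 119.8 and 121 FPKM in shCTRL and 31.6, 32.7 and 29.2 with shYap-1. It fell by 1.90 on the log2 scale (adjusted p = 1.18e-06). Ccn2, the related connective tissue growth factor, read 148, 157 and 167 FPKM in shCTRL and 49.5, 63.6 and 54.5 with shYap-1, a fall of 1.48. Nt5e, the ecto-enzyme CD73 that makes extracellular adenosine, went from 72.9, 72.9 and 70.3 to 31.03, 26.97 and 31.1 FPKM. None of these 3 genes overlapped between the arms. The 2 members that rose were Axl, a receptor tyrosine kinase, at 0.57, and Crim1 at 0.33, which lost its call under some alternatives.

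Pathway components moved in both directions. Among 29 Hippo kinases, scaffolds and TEAD factors, a list that also counts Yap1, the hairpin's own target, 13 fell and 7 rose (median -0.20). That median was -0.08 without shYap-1 replicate 2 and -0.11 without shCTRL replicate 1. Tead1, the DNA-binding partner of YAP, read 43.4, 42.6 and 41.4 FPKM in shCTRL and 16.5, 21.03 and 18.9 with shYap-1 (-1.14, adjusted p = 3.17e-05). Lats2, the kinase that phosphorylates YAP, fell by 0.82. Amotl2, an angiomotin that binds YAP at junctions, went from 71.2, 75.01 and 73.98 to 29.6, 34.00 and 28.7 FPKM (-1.23), while its relative Amot went the other way, from 6.06, 5.18 and 4.86 to 16.2, 18.8 and 17.7 FPKM (1.55). Vgll4, a TEAD cofactor that competes with YAP, and the LATS inhibitor Limd1 rose by 0.88 and 0.84.

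The TEAD core GGAATG, searched on both strands in the promoter (from 250 bases before to 50 bases after the start of the gene, RefSeq on GRCm38.p6), was present in 7 of 11 signature genes that have a promoter in the table (63.6%). It was present in 14.1% of all genes tested and in 16.6% of all genes with a promoter in the table. Among the genes that fell the share was 13.8%, no higher than among all tested. Other lists held the core at high shares too. It was in 13 of 24 Hippo and TEAD pathway genes (54.2%). The actin, myosin and SRF list, with 14 rises and 5 falls of 27, held it in 10 of 24 (41.7%). The 3 stretches below were picked, by size of fall, among signature members that hold the core before the gene start. The core, or its reverse complement CATTCC, is in capitals. They lie at chr3:145650041-145650130 (minus strand), chr9:102717697-102717786 (plus strand) and chr19:36119920-36120009 (minus strand), each written along the gene's strand.
Ccn1: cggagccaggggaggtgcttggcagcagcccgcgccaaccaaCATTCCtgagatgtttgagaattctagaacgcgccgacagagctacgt
Amotl2: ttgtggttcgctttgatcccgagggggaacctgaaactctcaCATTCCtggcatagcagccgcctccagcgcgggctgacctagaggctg
Ankrd1: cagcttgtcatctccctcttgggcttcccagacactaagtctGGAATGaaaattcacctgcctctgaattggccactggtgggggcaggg
Each holds 1 match, which ends 97, 59 and 117 bases before the gene start in that order.

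Interferon-induced genes rose as a body. Of 45 interferon-stimulated effectors tested, 40 rose and none fell by limma (0 lower at an unadjusted p under 0.05), and 37 rose by at least 1 on the log2 scale, where 8.87% of all genes did. Their median was 2.25. The effectors not called were Ifit2, Ifitm1, Ifitm2, Samhd1 and Tor3a. All 11 interferon-inducible GTPases tested rose, with a median of 2.34, and so did 14 of 18 nucleic acid sensors, of which 2 fell. Summed over the 11 GTPases, the level was 22.5, 19.96 and 20.3 FPKM in the shCTRL libraries and 164, 156 and 171 with shYap-1. In bulk RNA, a change in the number of cells that express a gene and a change in RNA per cell cannot be told apart.

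Isg15 (chromosome 4 from 156199424 to 156200818), a ubiquitin-like modifier, read 10.3, 9.93 and 9.40 FPKM in shCTRL and 181, 215 and 196 with shYap-1. Usp18, the protease that removes ISG15 from its substrates, read 0.82, 0.38 and 0.93 FPKM in shCTRL and 34.2, 36.4 and 37.4 with shYap-1. Both sets of libraries were far apart, with log2 fold changes of 4.19 and 4.45. These genes are among the largest rises, which were picked only from genes without overlap between the arms. Oas1a and Oas3 are synthetases of the oligoadenylate messenger that activates RNase L. Oas1a went from 2.06, 2.14 and 2.02 FPKM in shCTRL to 48.7, 55.2 and 53.6 with shYap-1. Oas3 went from 0.51, 0.53 and 0.65 FPKM in shCTRL to 23.6, 26.01 and 26.2 with shYap-1. The near-identical neighbours of Oas1a may share its fragments, so its level is uncertain. Dhx58, the RNA sensor LGP2, read 0.68, 0.50 and 1.08 FPKM in shCTRL and 23.5, 27.7 and 24.5 with shYap-1. Zbp1, a sensor of Z-form nucleic acid, read 1.08, 0.94 and 0.97 FPKM in shCTRL and 25.96, 27.97 and 28.2 with shYap-1. The sensors that fell were Ikbke (-0.54) and Cgas (-0.34), the latter from 5.57, 5.60 and 5.48 to 4.35, 3.83 and 4.38 FPKM.

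The factors that carry the interferon signal rose too, with 11 of 14 IRF and STAT genes higher and none lower (limma; 0 lower at an unadjusted p under 0.05), although 2 were lower with the trend on GC content removed. Irf9, the DNA-binding subunit of the ISGF3 complex, read 4.22, 4.65 and 4.34 FPKM in shCTRL and 23.6, 24.7 and 23.7 with shYap-1 (2.21, adjusted p = 1.13e-06). Stat2, of the same complex, rose by 1.56. The receptors and kinases above them moved less: 8 of 15 interferon and JAK signalling genes rose and 3 fell, with a median of 0.32. Tyk2, the kinase of the type I receptor, rose by 0.66, and Ptpn6, the phosphatase SHP-1, by 1.21. The genes that fell were Socs2, a feedback inhibitor (-1.01), Ifnlr1, the lambda interferon receptor (-0.54), and Ptpn2 (-0.55), whose call was lost under some alternatives.

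The interferon-stimulated response element, searched as GAAANNGAA on both strands, was present in the promoters of 8 of 8 interferon-inducible GTPases that have one in the table, 15 of 35 effectors (42.9%) and 7 of 14 sensors. Of all genes tested 8.38% held it, and 9.76% of all genes with a promoter in the table did. Among genes that rose by at least 2 on the log2 scale the share was 32.6%, beside 9.4% among all that rose and 7.82% among those not called. Lists that fell on balance differed. The element was in 3 of 11 chemokines and cytokines (27.3%) and 12 of 62 cytosolic ribosomal protein genes (19.4%). It was in 2 of 31 mitosis genes and 1 of 35 DNA replication genes. The stretches shown were picked among members with large rises that hold the element before the gene start. Every match, or its reverse complement TTCNNTTTC, is in capitals. They lie at chr19:34640764-34640853 (plus strand), chr4:156200836-156200925 (minus strand), chr5:120777680-120777769 (minus strand), chr11:58199466-58199555 (plus strand) and chr3:142559954-142560043 (plus strand).
Ifit1: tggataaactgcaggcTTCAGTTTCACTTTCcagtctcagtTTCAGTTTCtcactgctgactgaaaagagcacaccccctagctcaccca
Isg15: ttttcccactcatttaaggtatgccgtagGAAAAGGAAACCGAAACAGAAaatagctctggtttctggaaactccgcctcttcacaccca
Oas3: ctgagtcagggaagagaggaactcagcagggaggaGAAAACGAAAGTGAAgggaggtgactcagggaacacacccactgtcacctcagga
Igtp: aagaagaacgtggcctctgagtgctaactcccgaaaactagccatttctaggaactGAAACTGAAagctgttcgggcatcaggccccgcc
Gbp3: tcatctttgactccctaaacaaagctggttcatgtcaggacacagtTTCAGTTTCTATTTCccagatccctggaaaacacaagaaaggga
Ifit1 and Isg15 hold 3 matches each, Oas3 and Gbp3 hold 2, and Igtp holds 1. The last match ends between 25 and 75 bases before the gene start in these 5 genes.

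Igtp, Irgm2, Gbp3 and Gbp7, GTPases that attack the vacuoles of intracellular pathogens, rose by 3.43, 3.01, 2.998 and 2.97. Gbp3 read 1.45, 1.93 and 1.36 FPKM in shCTRL and 19.2, 18.7 and 20.8 with shYap-1. Igtp and Irgm2 overlap on one strand in the annotation, so their levels cannot be fully told apart.

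Genes at the bottom of the range in shCTRL appeared with shYap-1, and none was lost. In 18 genes the mean was under 0.5 FPKM in shCTRL and at least 5 FPKM with shYap-1, and 0 genes showed the opposite. Ifit3b read 0.05, 0.05 and 0.13 FPKM in shCTRL and 10.2, 9.72 and 10.1 with shYap-1. Ifi44 read 0.28, 0.14 and 0.35 FPKM in shCTRL and 15.1, 10.7 and 16.8 with shYap-1. Ifit3b and Ifit3 are near-copies and may share fragments. Serpinb9b, a serpin of the granzyme inhibitor family, read 0.33, 0.33 and 0.43 FPKM in shCTRL and 19.1, 16.02 and 18.2 with shYap-1. Cspg5, a chondroitin sulfate proteoglycan, read 0.35, 0.50 and 0.43 FPKM in shCTRL and 10.4, 12.04 and 9.67 with shYap-1. The gene model Gm28635 was listed at 0 in all 3 shCTRL libraries and at 9.21, 16.1 and 8.97 FPKM with shYap-1, so no fold is given. Gm3417 read 0.14, 0.13 and 0 FPKM in shCTRL and 20.6, 28.2 and 19.99 with shYap-1.

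Of the 9 other serpins tested 6 rose and none fell (limma; 0 lower at an unadjusted p under 0.05), although 1 was lower without shYap-1 replicate 2 and 1 with the GC trend removed. Serpinb9, an inhibitor of granzyme B, read 3.28, 2.90 and 3.18 FPKM in shCTRL and 13.8, 10.3 and 13.4 with shYap-1 (1.70). Serpinb5, known as maspin, rose by 1.90 and Serpinb2, an inhibitor of urokinase, by 1.96. In each of these 3 genes shYap-1 replicate 2 was the lowest of its arm and still above every control.

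Antigen presentation genes rose with few exceptions. Of 17 MHC-I presentation genes, 16 rose and none fell, 14 of them by at least 1, with a median of 1.32; the member not called was the chaperone Canx. Tap1, a subunit of the peptide transporter, averaged 2.40 ± 0.268 FPKM in shCTRL and 16.9 ± 0.787 with shYap-1 (SD, n = 3) and rose by 2.40. The immunoproteasome subunits Psmb9 and Psmb8 rose by 1.92 and 1.86, Psmb8 from 19.7, 25.9 and 23.9 to 76.96, 100.3 and 82.6 FPKM. Tap1 and Psmb9 overlap at their ends on opposite strands, and no source used here states whether counting used strand, so fragments there are uncertain. Of 13 non-classical MHC and class II genes 9 rose and none fell. In both MHC lists 0 genes were lower at an unadjusted p under 0.05, although 1 of the 13 was called lower without shYap-1 replicate 2. H2-DMa, a chaperone of class II peptide loading, read 2.16, 2.05 and 2.36 FPKM in shCTRL and 30.6, 31.7 and 31.4 with shYap-1. The Qa-1 gene H2-T23 read 18.1, 17.5 and 20.5 FPKM in shCTRL and 95.2, 120.0 and 99.1 with shYap-1. The reference carries the MHC haplotype of another strain than BALB/c and the H2 genes are close copies, so the split between them is uncertain.

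The constitutive 26S proteasome moved less. Of 32 subunits 18 rose and Psmd14 fell, with a median of 0.25 and no change of 1 or more. That median was 0.15 with trimmed-mean scaling and 0.17 with median-of-ratios scaling, and 4 subunits fell with the GC trend removed. Without shYap-1 replicate 2, 26 rose and 2 fell. Psmd4, a ubiquitin receptor of the complex, read 155, 169 and 172 FPKM in shCTRL and 253, 305 and 255 with shYap-1. Psmd14, its deubiquitinase, went from 85.8, 82.4 and 80.9 to 69.1, 54.6 and 66.6 FPKM.

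Ligands read by immune cells were mixed, at 4 rises and 5 falls of 10, a balance that turned to 4 and 3 without shCTRL replicate 2 and to 5 and 4 without shCTRL replicate 3. Lgals9, the lectin galectin-9, read 8.81, 8.26 and 8.34 FPKM in shCTRL and 63.9, 72.5 and 65.9 with shYap-1 (2.85). Cd276, or B7-H3, read 24.4, 26.2 and 27.9 FPKM in shCTRL and 65.2, 76.8 and 67.00 with shYap-1 (1.38). Cd47, the anti-phagocytic signal, rose by 0.57, from 75.4, 71.7 and 68.4 to 126, 83.97 and 116 FPKM, with shYap-1 replicate 2 the nearest to the controls. Besides Nt5e, the falls named were Ulbp1 (-0.49), a ligand of the NKG2D receptor, Nectin2 (-0.36) and Tnfsf9 (-0.34, not called without shCTRL replicate 2). Cd68, the only leukocyte marker tested, went from 7.72, 7.69 and 7.95 to 3.82, 4.99 and 3.93 FPKM. The pan-leukocyte marker Ptprc did not reach 0.2 FPKM in any library, and the T cell gene Cd3e was at 0 in 5 of the 6 libraries.

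Chemokines and cytokines fell on balance, with 13 of 20 lower, 6 higher and a median of -0.73. Cxcl5, a neutrophil attractant, read 19.6, 19.3 and 17.8 FPKM in shCTRL and 1.21, 1.46 and 1.77 with shYap-1 (-3.01). Cxcl1, another, read 90.8, 103 and 84.6 FPKM in shCTRL and 10.5, 12.4 and 11.4 with shYap-1 (-2.91). Both are among the largest falls, which were picked only from genes without overlap between the arms. Ccl20, which attracts CCR6-bearing cells, went from 13.1, 16.6 and 12.2 to 1.69, 1.39 and 2.27 FPKM, and Il1a, an alarmin, fell by 1.72. In the opposite direction, Ccl25 read 2.52, 2.62 and 2.43 FPKM in shCTRL and 13.8, 13.7 and 13.7 with shYap-1, and the T cell and NK cell attractants Ccl5 and Cx3cl1 rose by 1.35 and 1.42. Of 18 NF-kB subunits and feedback genes, 7 rose and 5 fell with no change of 1 or more, and with the GC trend removed 4 rose and 8 fell. Nfkbiz, a nuclear cofactor of NF-kB, fell by 0.78 and Birc3 by 0.72, while Tnip1 and Nfkbie rose by 0.69 and 0.59. The 4 complement genes tested were all called higher, among them C3, the central component, from 9.03, 9.04 and 9.85 to 30.6, 33.5 and 31.2 FPKM. Only 2 were called without shCTRL replicate 1, without shCTRL replicate 2 or without shYap-1 replicate 3, and Cr1l lost its call under 9 alternatives.

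Lysosomal genes rose nearly throughout. The lysosome is the acidic compartment in which hydrolases break down protein, lipid and glycan, and the vacuolar ATPase (V-ATPase) acidifies it. Of 45 lysosomal genes 40 rose, 22 of them by at least 1, and Lipa, the acid lipase, fell. Of 26 V-ATPase and lysosomal mTORC1 docking genes 21 rose and Lamtor2, a Ragulator subunit, fell, with 1 further fall under either scaling or with the GC trend removed. The medians were 0.94 and 0.65 beside 0.07 over all genes. Summed over the 45 lysosomal genes, the level was 2446, 2496 and 2478 FPKM in the shCTRL libraries and 4789, 5060.3 and 4849 with shYap-1. The V-ATPase list summed to 1132, 1134 and 1168 FPKM and 2049, 2243 and 2067 FPKM. Neither sum overlapped between the arms, and without shYap-1 replicate 2 the medians were 0.93 and 0.56.

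Grn (chromosome 11 from 102430315 to 102437048), the precursor of the lysosomal granulins, read 74.2, 80.9 and 87.1 FPKM in shCTRL and 329, 397 and 348 with shYap-1 (2.13, adjusted p = 2.21e-06). The groups were far apart. Ctso, a cathepsin, rose by 1.95 from a level near 1 FPKM. Among abundant members, picked after their values were seen, the protease Ctsd read 111, 115 and 116 FPKM in shCTRL and 390.3, 449 and 399.5 with shYap-1. The saposin precursor Psap read 162, 164 and 166 FPKM in shCTRL and 449.8, 518 and 461 with shYap-1. The membrane protein Lamp1 read 277, 290.2 and 289 FPKM in shCTRL and 546, 533 and 543 with shYap-1. Lipa, the exception, read 3.92, 3.50 and 3.88 FPKM in shCTRL and 2.13, 2.04 and 1.87 with shYap-1.

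**Figure D3:**
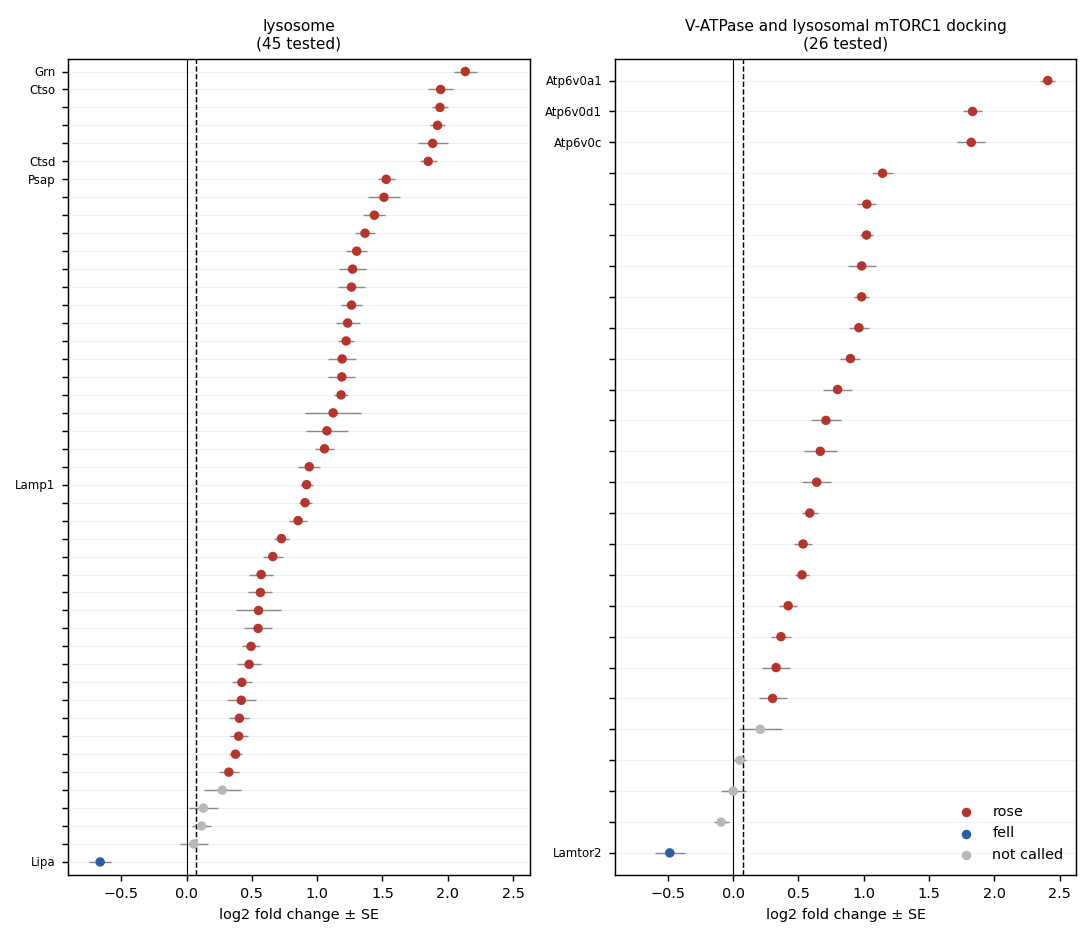
Log2 fold change (shYap-1 over shCTRL, log2(FPKM + 1)) with its SE for the 45 lysosomal and the 26 V-ATPase and docking genes tested, of which those with values in the text are labelled. Values reach 2.41 at Atp6v0a1, and the only called falls are Lipa at -0.66 and Lamtor2 at -0.49.

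The membrane sector of the V-ATPase led that list. Atp6v0a1 (chromosome 11 from 101009452 to 101063719), its a1 subunit, read 7.67, 7.81 and 7.83 FPKM in shCTRL and 46.3, 45.3 and 45.1 with shYap-1 (2.41, adjusted p = 4.74e-07). Atp6v0d1 and Atp6v0c, the latter a proteolipid of the rotor ring, rose by 1.83 and 1.82, and Atp6v0c reached 477, 612 and 488 FPKM from 137, 146 and 158 FPKM. Autophagy genes followed at a smaller size, with 26 of 36 higher, 2 lower and a median of 0.54. Map1lc3b, which coats autophagosomes, read 82.3, 89.8 and 79.7 FPKM in shCTRL and 217, 263 and 221 with shYap-1. Its relative Gabarapl1 read 24.3, 20.4 and 23.6 FPKM in shCTRL and 57.96, 47.1 and 49.2 with shYap-1. Sqstm1, the receptor p62, rose by 0.60. The 2 that fell were Atg2b (-0.26) and Atg4d (-0.43), small in size. Of the factors that bind lysosomal promoters, named here after their values were seen, Mitf rose by 0.67 and Tfe3 by 0.29, while Tfeb was not called (0.11, adjusted p = 0.571).

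The E-box CACGTG, the core of the element bound by those factors and by other basic helix-loop-helix proteins, was present in the promoters of 13 of 35 lysosomal genes (37.1%) and 8 of 20 V-ATPase and docking genes (40.0%). It was present in 12.3% of the genes tested, 8.09% of all genes with a promoter in the table, 12.5% of those that rose and 12.9% of the autophagy list. Lists that did not rise as the lysosomal ones did held it at like shares, with 4 of 10 genes of the Myc network, 5 of 13 clock genes and 8 of 25 translation factors. The stretches were picked among members of both lists that hold the core before the gene start. CACGTG, which is its own reverse complement, is in capitals. They lie at chr7:142387878-142387967 (minus strand), chr11:101069979-101070068 (plus strand), chr9:114400988-114401077 (plus strand) and chr4:117887330-117887419 (minus strand).
Ctsd: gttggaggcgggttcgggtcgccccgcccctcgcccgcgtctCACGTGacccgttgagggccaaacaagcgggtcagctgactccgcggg
Naglu: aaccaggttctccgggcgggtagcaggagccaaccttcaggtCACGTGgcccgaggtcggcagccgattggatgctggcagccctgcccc
Glb1: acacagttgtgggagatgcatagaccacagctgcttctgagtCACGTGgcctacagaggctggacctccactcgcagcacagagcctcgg
Atp6v0b: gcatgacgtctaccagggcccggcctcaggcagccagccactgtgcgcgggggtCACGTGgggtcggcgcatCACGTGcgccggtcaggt
Atp6v0b holds 2 cores, the last ending 12 bases before the gene start, and the other 3 hold 1.

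**Figure D4:**
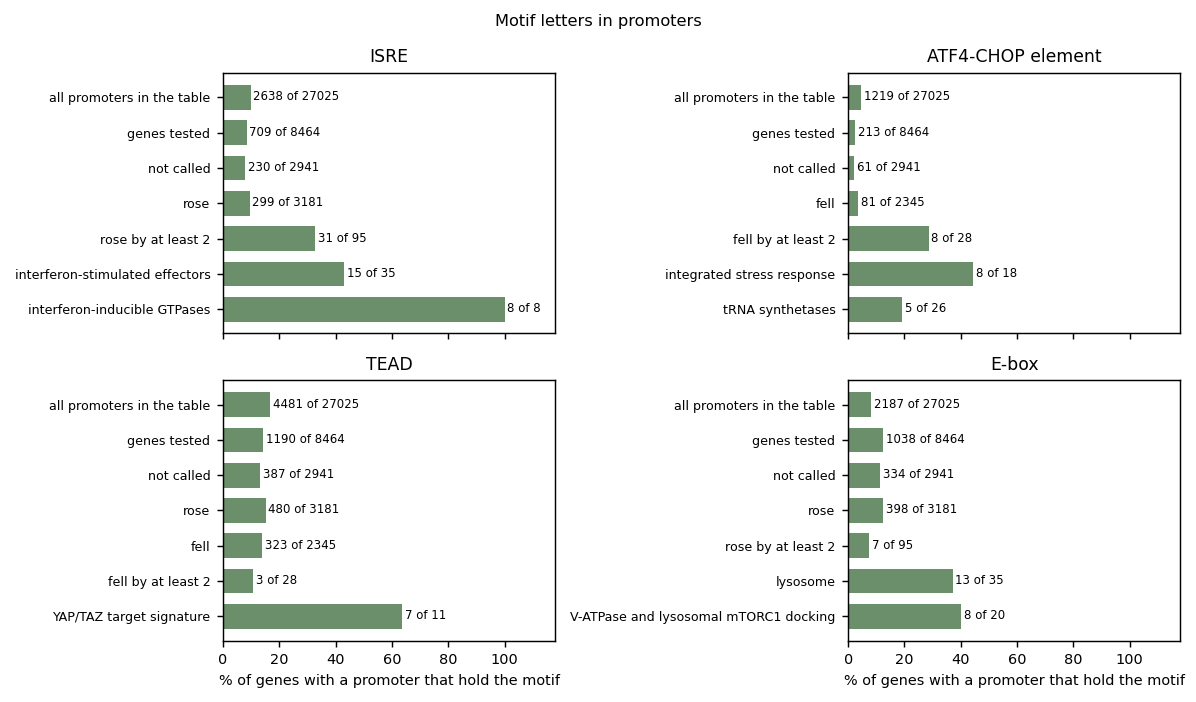
Percent of genes whose 300-base promoter window holds each of 4 motifs, for all genes tested, for the genes that rose or fell, and for the gene lists. The ISRE is in 8 of 8 GTPases and the E-box in 37.1% of lysosomal genes, beside 8.38% and 12.3% of all genes tested.

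Genes of the integrated stress response fell almost without exception. In this response, kinases that sense amino acid shortage or misfolded protein phosphorylate eIF2, and the factor ATF4 is then translated and drives genes of amino acid supply. Of 18 members 17 fell, 15 by at least 1 where 3.85% of all genes did, and Sqstm1 rose. The median was -1.83, and the sum fell from 1913, 1980.3 and 1862 FPKM in shCTRL to 929.6, 1006 and 936 with shYap-1. Chac1, which degrades glutathione, read 77.9, 85.2 and 80.7 FPKM in shCTRL and 7.08, 9.24 and 7.87 with shYap-1 (-3.19). Ddit4, an inhibitor of mTORC1, read 287, 287 and 296 FPKM in shCTRL and 32.4, 44.6 and 32.97 with shYap-1. The stress protein Nupr1 read 223, 229.8 and 191 FPKM in shCTRL and 48.7, 43.1 and 47.4 with shYap-1. Atf4 itself and Asns, which makes asparagine, were picked after their values were seen: Atf4 read 289, 290.4 and 283 FPKM in shCTRL and 76.5, 84.1 and 77.7 with shYap-1. Asns read 191, 204 and 202 FPKM in shCTRL and 50.1, 50.1 and 46.9 with shYap-1. The groups were apart in all of these, as in 71.2% of all genes tested. Chac1 and Ddit4 are among the largest falls, which were picked only from genes without overlap between the arms.

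The C/EBP-ATF element TGATGNAA, searched on both strands, was present in 8 of 18 promoters of the list (44.4%) and 5 of 26 of the tRNA synthetases (19.2%). Of the genes that fell by at least 2 on the log2 scale 8 of 28 held it (28.6%), beside 2.52% of genes tested and 4.51% of all genes with a promoter in the table. The stretches with the element, or its reverse complement TTNCATCA, in capitals belong to 3 of the members with large falls and lie at chr2:119351008-119351097 (plus strand), chr7:126625532-126625621 (minus strand) and chr6:7693210-7693299 (minus strand).
Chac1: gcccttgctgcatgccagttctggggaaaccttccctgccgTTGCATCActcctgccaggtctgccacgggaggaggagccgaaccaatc
Nupr1: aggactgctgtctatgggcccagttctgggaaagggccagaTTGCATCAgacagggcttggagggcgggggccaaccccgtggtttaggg
Asns: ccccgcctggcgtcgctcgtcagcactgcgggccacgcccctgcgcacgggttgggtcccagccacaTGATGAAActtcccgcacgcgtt
Each holds 1 match, which ends 185, 102 and 15 bases before the gene start in that order. Across the promoters of the genes tested, matches to 2 different motifs overlapped in 10 cases for the ISRE and the TEAD core, in 3 for the ISRE and TGATGNAA, in 2 for the TEAD core and TGATGNAA, and in 1 each for the E-box with these last 2 motifs. The AP-1 site TGANTCA was in 24 of 95 promoters of genes that rose by at least 2 (25.3%) and in 0 of 28 of those that fell by as much, against 6.18% of genes tested. That site overlapped an E-box in 13 promoters and a TEAD core in 8. A match is only a run of letters in the window.

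Amino acid supply followed the same direction. Of 14 amino acid transporters 10 fell and 3 rose. Slc7a11, the cystine importer, read 8.57, 9.02 and 6.86 FPKM in shCTRL and 0.72, 0.52 and 0.62 with shYap-1. The glycine transporter Slc6a9 read 23.3, 23.4 and 23.5 FPKM in shCTRL and 2.81, 3.54 and 2.97 with shYap-1. Slc7a5, the large neutral amino acid exchanger, and Slc38a2 fell by 1.65 and 1.71. The transporters that rose were Slc36a1 (1.01), which exports amino acids from lysosomes, Slc7a6 (0.51) and Slc43a2 (1.097). Of 20 genes of amino acid and one-carbon synthesis 14 fell and 2 rose. Mthfd2, the mitochondrial folate enzyme, read 147, 156 and 139 FPKM in shCTRL and 27.4, 28.4 and 26.4 with shYap-1. Gpt2, which makes alanine, read 44.9, 48.1 and 43.3 FPKM in shCTRL and 6.53, 7.23 and 6.55 with shYap-1. The proline pathway enzymes Pycr1 and Aldh18a1 fell by 2.33 and 2.14. Mthfd2l, the paralog of Mthfd2, went the other way (0.75), as did Cbs of the transsulfuration path (1.71), from 0.96, 0.16 and 0.27 to 3.36, 4.82 and 3.02 FPKM. Pck2, the mitochondrial phosphoenolpyruvate carboxykinase, read 56.5, 65.5 and 62.1 FPKM in shCTRL and 7.18, 9.76 and 9.24 with shYap-1.

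Of 37 tRNA synthetases tested, 20 fell and 7 rose, with a median of -0.26, and 4 rose under either scaling. Among the 20 without the ending 2 in their symbol, most of them cytosolic, 14 fell and 3 rose. Among the 17 mitochondrial enzymes, whose symbols end in 2, 6 fell and 4 rose. The 4 largest falls were the cytosolic enzymes Vars, Cars, Iars and Tars, at -1.53, -1.33, -1.08 and -1.06. The 4 largest rises were the mitochondrial enzymes Aars2, Ears2, Rars2 and Vars2, at 0.49, 0.47, 0.46 and 0.41, the last not called under some alternatives. Vars read 249, 264 and 264 FPKM in shCTRL and 80.8, 106 and 81.99 with shYap-1. Ears2 read 3.24, 3.39 and 3.51 FPKM in shCTRL and 4.73, 5.63 and 4.87 with shYap-1. The difference between the compartments was not tested.

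Chaperones of the endoplasmic reticulum did not share the fall. Of 24 tested 14 rose and 3 fell, with a median of 0.26. Under either scaling 11 rose and 5 fell, with the median down to 0.17 under trimmed-mean scaling, and 6 fell with the GC trend removed. Without shYap-1 replicate 2, 16 rose and 3 fell, with a median of 0.35. Calr, calreticulin, read 158, 159 and 163 FPKM in shCTRL and 440.1, 421 and 453 with shYap-1 (1.45). Pdia3, its partner disulfide isomerase, read 134, 128 and 126 FPKM in shCTRL and 251, 180.3 and 246 with shYap-1. Herpud1, a component of the degradation machinery, fell from 68.8, 68.2 and 62.3 to 19.03, 18.1 and 17.5 FPKM, and Hyou1 by 0.40. In the cytosol and mitochondria, 14 of 31 chaperones fell and 8 rose. Hspd1, the mitochondrial chaperonin, went from 409.7, 395 and 373 to 230.3, 149 and 223 FPKM, and Hsp90aa1 fell by 0.78, while Dnajb1, Hspb8 and the co-chaperone Bag3 rose by 0.98, 1.00 and 0.96.

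The machinery of protein synthesis fell broadly but by less. Of 83 cytosolic ribosomal protein genes 75 fell and 1, Rpl7l1, rose (0.27, a call lost under some alternatives), with a median of -0.51 and 3 falls of 1 or more. Their summed level was 98263, 100209 and 101412 FPKM in shCTRL and 66161, 75536 and 66989.8 with shYap-1, where replicate 2 was the nearest to the controls. Rps14 read 1245, 1355 and 1373 FPKM in shCTRL and 496, 633 and 489 with shYap-1. Rpl12 read 1093, 1113 and 1118 FPKM in shCTRL and 465, 529.8 and 485 with shYap-1. Processed copies of these genes in the genome make their single levels uncertain. Mitochondrial ribosomal proteins differed, with 23 of 78 higher and 17 lower and a median of 0.04. That balance turned to 16 and 19 with median-of-ratios scaling, 15 and 21 with trimmed-mean scaling and 18 and 27 with the GC trend removed.

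Ribosome assembly moved with the ribosomal proteins, with 25 of 33 genes of rRNA processing and RNA polymerase I lower and 2 higher (median -0.50). Nop56, a core protein of box C/D particles, read 235, 236 and 222 FPKM in shCTRL and 99.8, 102 and 99.00 with shYap-1. Gar1 and Dkc1, which guide pseudouridine formation, fell by 1.41 and 1.25. The rises were Nop10, another protein of that particle (0.33), and Rrn3 (0.30), lost under some alternatives. Npm1, a nucleolar chaperone, was among the largest losses in FPKM, from 1995, 1940.1 and 1929 to 1041, 840.4 and 1013 FPKM. Of 35 translation factors 16 fell and 2 rose, 4 without shYap-1 replicate 2. Eif4ebp1, the inhibitor of cap binding, fell from 156, 161 and 157 to 45.7, 58.9 and 48.2 FPKM, while its paralog Eif4ebp2 rose from 19.7, 19.1 and 20.7 to 38.01, 41.96 and 38.6 FPKM.

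Splicing factors of the SR and hnRNP families fell in 23 of 33 cases and rose in 3 (5 without shYap-1 replicate 2 and 1 without either shCTRL replicate 3 or shYap-1 replicate 3), with a median of -0.51. Hnrnpa3 read 433, 402 and 417 FPKM in shCTRL and 78.1, 51.5 and 71.4 with shYap-1 (-2.64). Hnrnpa1 read 769, 781 and 773 FPKM in shCTRL and 276, 258 and 278 with shYap-1 (-1.51). Both have processed copies that may share fragments. Srsf3 and Srsf1 fell by 1.43 and 0.94, and shYap-1 replicate 2 was the lowest library for Srsf3, at 46.03, 28.4 and 43.7 FPKM in the 3 libraries. The rises were Srsf5 (0.39) and the SR protein kinases Clk1 (0.39) and Clk4 (0.30), the 2 kinases with calls lost under some alternatives.

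Genes of cell division fell without a called rise by limma, and 0 in either list were higher at an unadjusted p under 0.05, although 1 DNA replication gene was called higher without shYap-1 replicate 2 and 1 with the GC trend removed. All 38 mitosis genes fell, 10 of them by at least 1, with a median of -0.83, and 35 of 43 DNA replication genes fell with a median of -0.54. Anln, the anillin of the cleavage furrow, read 164, 157 and 156 FPKM in shCTRL and 54.6, 40.5 and 54.6 with shYap-1. Bub1b, a kinase of the spindle checkpoint, read 49.8, 49.7 and 50.8 FPKM in shCTRL and 19.5, 17.7 and 18.3 with shYap-1. Rrm2, the ribonucleotide reductase subunit, read 72.00, 69.97 and 74.01 FPKM in shCTRL and 25.3, 21.7 and 25.1 with shYap-1. Pola1, the catalytic subunit of polymerase alpha, read 24.2, 22.1 and 21.9 FPKM in shCTRL and 7.74, 5.61 and 8.16 with shYap-1. The arms were apart in all 4. Against the shCTRL mean, the median over the mitosis list was -0.70, -1.03 and -0.80 in shYap-1 replicates 1, 2 and 3.

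Cyclins and inhibitors were mixed, at 10 falls and 6 rises of 25, or 10 and 9 without shYap-1 replicate 2. Ccnd1, the cyclin that opens G1, read 468, 481 and 498 FPKM in shCTRL and 231, 257 and 231 with shYap-1, and its kinase Cdk4 fell by 0.86. Ccnd3, another D cyclin, rose from 22.4, 20.5 and 21.5 to 41.5, 51.4 and 45.1 FPKM. The inhibitors Cdkn2c and Cdkn1a rose by 0.70 and 0.64. Myc read 189.7, 208 and 198 FPKM in shCTRL and 72.9, 86.5 and 74.5 with shYap-1 (-1.34, adjusted p = 8.65e-06). Mxd4, a repressor that takes the place of MYC on its partner MAX, rose from 6.15, 5.02 and 6.02 to 25.5, 33.6 and 28.4 FPKM (2.16), while the related Mxi1 fell by 1.02. Of 11 genes of the Myc network 5 rose and 2 fell. Only 3 rose under either scaling, without shCTRL replicate 2 or without shYap-1 replicate 3, and with the GC trend removed 2 rose and 3 fell.

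Histone genes moved both ways. Of 38 tested 16 rose, 14 of them by at least 1, and 5 fell, and 26 rose without shCTRL replicate 3. Hist1h1c, a linker histone, read 4.67, 4.01 and 5.64 FPKM in shCTRL and 40.1, 32.9 and 38.2 with shYap-1. Hist1h2bc read 3.57, 4.29 and 6.20 FPKM in shCTRL and 40.9, 53.6 and 43.3 with shYap-1. Hist2h2aa2 read 1.56, 4.52 and 22.7 FPKM in shCTRL and 74.98, 105 and 75.7 with shYap-1, so its log2 fold change of 3.62 became 2.90 without shCTRL replicate 1 and 4.50 without shCTRL replicate 3. Hist2h2aa1 is a near-identical neighbour, and their fragments cannot be told apart. Canonical histone transcripts mostly lack a poly(A) tail, and these libraries were enriched by oligo(dT), so such values are a small sample of histone RNA. The named falls were the replacement linker histone H1f0, from 466, 445 and 470.3 to 169, 197 and 173 FPKM, and the variants H2afx (-0.68), H2afz (-0.46) and H2afy (-0.38).

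Among 25 genes of chromatin silencing 11 fell and 4 rose. The rises numbered 7 without shYap-1 replicate 2, 1 without shCTRL replicate 2, 2 without shCTRL replicate 3, 2 with median-of-ratios scaling and 1 with trimmed-mean scaling. Suv39h2, a histone H3K9 methyltransferase, read 8.11, 7.88 and 8.37 FPKM in shCTRL and 4.38, 3.35 and 4.99 with shYap-1. Hells, a chromatin remodeller needed for DNA methylation, read 27.1, 22.6 and 20.00 FPKM in shCTRL and 11.8, 5.20 and 11.5 with shYap-1, and its fall of 1.27 became -0.93 without shYap-1 replicate 2. Atf7ip, a partner of the methyltransferase SETDB1, rose by 1.12 from 11.04, 10.8 and 11.01 to 28.9, 18.5 and 28.9 FPKM. Of 276 Zfp zinc finger genes 85 fell and 46 rose, a median of -0.13 (-0.21 and -0.22 under the scalings, and 30 rises without shCTRL replicate 2), with a range among the named from -1.45 at Zfp580 to 1.34 at Zfp523.

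Lipid synthesis genes fell in 22 of 36 cases and rose in 6, with a median of -0.36. Fads1 and Fads2 are the desaturases of polyunsaturated fatty acids. Fads1 read 33.9, 33.6 and 34.6 FPKM in shCTRL and 5.73, 5.99 and 5.59 with shYap-1 (-2.37). Fads2 read 88.5, 89.4 and 94.2 FPKM in shCTRL and 28.3, 30.2 and 26.96 with shYap-1 (-1.64). Fdps, which makes farnesyl diphosphate, went from 253, 263 and 269 to 103, 108 and 108 FPKM. All 3 were apart between the arms. Idi1, the isomerase before Fdps, read 86.00, 71.7 and 63.3 FPKM in shCTRL and 17.96, 5.23 and 15.4 with shYap-1, and its log2 fold change of -2.57 became -2.07 without shYap-1 replicate 2. Ebp, a late enzyme of cholesterol synthesis, and Me1, the malic enzyme, rose by 0.55 and 0.75. Plin2, the coat protein of lipid droplets, is not on the lipid synthesis list. It read 61.95, 68.9 and 65.9 FPKM in shCTRL and 182, 219.8 and 195 with shYap-1 (1.58).

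Of 22 hypoxia response genes, the list that holds Plin2, 14 fell and 3 rose, 7 of the falls by at least 1. Vegfa, the vascular growth factor, read 16.3, 17.7 and 15.04 FPKM in shCTRL and 1.86, 2.11 and 2.52 with shYap-1 (-2.46). Car12, a carbonic anhydrase, read 12.3, 11.7 and 12.5 FPKM in shCTRL and 4.14, 3.96 and 4.13 with shYap-1. Bnip3, a mitophagy receptor, read 40.8, 39.04 and 46.8 FPKM in shCTRL and 20.7, 14.8 and 17.01 with shYap-1. Of 27 glycolysis and pentose phosphate genes 12 fell and 4 rose, or 15 and 6 without shYap-1 replicate 2. Pgk1 and Ldha, abundant glycolytic enzymes, fell by 0.94 and 0.75, Ldha from 937, 980.1 and 1023 to 562, 609 and 572 FPKM. G6pdx, which opens the pentose phosphate path, rose from 38.5, 40.2 and 40.97 to 87.4, 92.1 and 85.3 FPKM, and the hexokinase Hk1 by 0.88. Within that path, the later enzyme Rpia fell by 0.66.

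Respiratory chain genes of the nuclear genome rose in 22 of 50 cases and fell in 5, beside 37.6% and 27.6% of all genes tested. Their median was 0.20. Without shYap-1 replicate 2, 27 rose and 9 fell. Median-of-ratios scaling gave 17 rises and 6 falls, and trimmed-mean scaling 18 and 7. With the GC trend removed 18 rose and 12 fell, with a median of 0.08. The largest rise among the named was 0.73 at Ndufa8, a complex I subunit that read 66.4, 65.7 and 67.2 FPKM in shCTRL and 105, 118.2 and 109 with shYap-1. Ndufa9 and Ndufa5 rose by 0.57 and 0.56, whereas Ndufa4 fell by 0.52. Of the 13 mitochondrially encoded genes none was called by limma, and 0 had an unadjusted p under 0.05. Replicate 2 of shYap-1 lay 1.07 below its fellows on the log2 scale over these genes, and without it 9 of 13 rose, with a median of 0.33. The mitochondrially encoded list therefore turns on that library.

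Both ferritin genes were among those picked for their gain in FPKM. The heavy chain Fth1 read 1380.4, 1462 and 1460.3 FPKM in shCTRL and 2328, 2522 and 2313 with shYap-1, a smaller ratio than that of the light chain Ftl1 (0.73 beside 1.70 on the log2 scale). Of 28 NRF2, glutathione and thioredoxin genes 16 rose and 5 fell. Nqo1, a quinone reductase, read 0.87, 0.84 and 0.64 FPKM in shCTRL and 6.10, 5.74 and 5.44 with shYap-1. Txnip, the inhibitor of thioredoxin, read 7.22, 6.21 and 7.69 FPKM in shCTRL and 28.5, 27.3 and 32.3 with shYap-1. Srxn1 rose by 0.99 and Gsta4 by 1.32. Nfe2l2, which encodes NRF2, fell from 21.5, 21.2 and 19.8 to 12.9, 11.2 and 13.4 FPKM, and its inhibitor Keap1 by 0.54. Slc7a11, also on this list, had the largest fall in it.

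Clu (chromosome 14 from 65968483 to 65981547), the secreted chaperone clusterin, combined a high level with a large ratio. It read 136, 133 and 141 FPKM in shCTRL and 1021, 1109.5 and 1031 with shYap-1, 7.71 times as high in the mean (2.94, adjusted p = 3.63e-07). Other large gains in FPKM were the ubiquitin gene Ubb (0.82), the cytoskeletal genes Actb and Myl6 (0.58 and 0.97) and S100a11 (0.67). The large losses besides Npm1 were Gapdh, from 3831, 4119.6 and 4394 to 2360.2, 3077 and 2441 FPKM, the elongation factor Eef1a1 (-0.31, not called without the filter) and the ribosomal protein genes Rps2, Rplp0, Rpl13 and Rpsa, at -0.43 to -0.69.

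Adhesion genes rose in a larger share than the 37.6% of all genes. Of 23 integrin and focal adhesion genes 18 rose and Tns3 fell (-0.17, lost under some alternatives, with 3 falls when the GC trend was removed), with a median of 0.48. Itgb5, a vitronectin receptor subunit, read 45.8, 49.2 and 51.7 FPKM in shCTRL and 120.3, 148 and 129 with shYap-1. Itgb3 read 0.72, 0.69 and 0.82 FPKM in shCTRL and 4.75, 6.02 and 5.08 with shYap-1. Itga5, of the fibronectin receptor, and the linked kinase Ilk rose by 1.00 and 0.82. Of 27 actin, myosin and SRF genes 14 rose and 5 fell, among them Tpm2, a tropomyosin (1.51), against Fhl2 (-0.58) and Myh10 (-0.61).

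The matrix list held 12 rises and 2 falls of 20, or 9 and 5 with the GC trend removed. The basement membrane collagens Col4a1, Col4a2 and Col4a5 rose by 1.11, 1.12 and 1.41, Col4a1 from 82.2, 71.4 and 82.4 to 164, 182 and 166 FPKM. Thbs1, thrombospondin 1, read 198, 207 and 217 FPKM in shCTRL and 86.7, 101.3 and 87.5 with shYap-1, and Col6a1 fell by 0.99. Of 18 metalloproteinases, TIMPs and urokinase genes 11 rose and 3 fell. Mmp11, stromelysin 3, read 7.66, 7.38 and 8.10 FPKM in shCTRL and 33.2, 41.3 and 34.7 with shYap-1. Mmp9, a gelatinase, read 55.4, 54.9 and 60.1 FPKM in shCTRL and 109, 122 and 112 with shYap-1. The inhibitor Timp2 rose by 1.22. The 3 falls were all of disintegrin proteases: Adamts1, from 24.3, 24.6 and 26.3 to 4.31, 4.71 and 4.03 FPKM, Adam9, from 53.6, 52.8 and 51.7 to 16.5, 14.4 and 15.9 FPKM, and Adam12 (-0.86).

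Keratin and epithelial genes stood at 9 rises and 9 falls of 25, or 8 and 12 with the GC trend removed. Krt14, a basal keratin, read 67.6, 70.3 and 77.7 FPKM in shCTRL and 236, 274 and 245 with shYap-1. Krt19 read 47.5, 43.3 and 52.9 FPKM in shCTRL and 116, 147 and 127 with shYap-1. Krt8 rose by 0.67, while its partner Krt18 fell by 0.19, a call lost under some alternatives. The tight junction genes Cldn3 and Tjp1 fell by 0.98 and 0.52, and the epithelial factor Grhl2 from 17.1, 17.4 and 17.3 to 9.11, 8.55 and 9.26 FPKM. Of 9 mesenchymal genes 7 rose and Twist1 fell (-0.30, lost under some alternatives), with 2 falls under either scaling and without shYap-1 replicate 1. Postn, periostin, averaged 5.06 ± 0.201 FPKM in shCTRL and 14.8 ± 1.33 with shYap-1 (SD, n = 3), Sparc rose by 1.03 and vimentin, Vim, by 0.49. Of 8 fibroblast markers only Pdgfra was tested, and it fell.

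Genes of the TGF-beta and BMP pathways included 11 rises and 7 falls of 24. Id2, Id1 and Id3, inhibitors of basic helix-loop-helix factors and BMP targets, rose by 1.97, 1.48 and 1.18. Id2 read 1.77, 1.78 and 1.66 FPKM in shCTRL and 8.99, 10.03 and 10.2 with shYap-1. The receptor Tgfbr2 went from 66.6, 70.4 and 68.8 to 32.6, 35.9 and 32.4 FPKM, and the signal carriers Smad5 and Smad2 fell by 0.99 and 0.82. Tgfb1, on the mesenchymal list, rose from 13.9, 13.3 and 16.3 to 29.1, 32.7 and 30.1 FPKM. EGF ligands and receptors stood at 5 rises and 4 falls of 13, or 5 and 6 under either scaling and 5 and 7 with the GC trend removed, with Erbb2 higher (0.86) and Nrg1 and Met lower (-1.22 and -0.72).

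Genes of cell death rose on balance. Of 24 death receptor and caspase genes 15 rose and 2 fell, or 1 without shCTRL replicate 1 or 2. Fas, the death receptor, read 5.81, 5.77 and 4.70 FPKM in shCTRL and 24.6, 17.2 and 24.2 with shYap-1. Tnfrsf1b, the second TNF receptor, read 9.85, 9.45 and 10.8 FPKM in shCTRL and 38.7, 47.2 and 39.7 with shYap-1. The inflammatory caspase Casp1 read 0.71, 0.53 and 0.49 FPKM in shCTRL and 7.64, 4.82 and 7.58 with shYap-1. Of 13 BCL2 family genes 9 rose and 3 fell. The pro-apoptotic genes Bmf, Bok, Bad and Bcl2l11 rose by 1.57, 1.18, 1.14 and 0.70. The protective genes Bcl2 and Bcl2l1 fell by 0.84 and 0.46, and pro-apoptotic Bbc3, or PUMA, by 0.66. Bcl2 read 5.05, 5.33 and 4.80 FPKM in shCTRL and 2.43, 2.17 and 2.58 with shYap-1.

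Targets of p53 showed no common direction, at 5 rises and 6 falls of 18, or 7 and 6 without shYap-1 replicate 2 and 3 and 9 with median-of-ratios scaling. Phlda3 read 15.1, 15.6 and 15.4 FPKM in shCTRL and 39.1, 53.2 and 41.04 with shYap-1. Sesn2, which ATF4 also induces, read 15.6, 16.4 and 15.2 FPKM in shCTRL and 3.21, 3.59 and 3.63 with shYap-1. Gadd45a read 94.7, 94.03 and 87.3 FPKM in shCTRL and 32.7, 41.6 and 32.4 with shYap-1. Immediate early genes were as mixed, at 8 rises and 10 falls of 24, or 8 and 7 without shYap-1 replicate 3. Atf3, also an ATF4 target, fell from 22.9, 23.7 and 22.1 to 5.75, 5.01 and 5.77 FPKM and Egr1 from 8.66, 8.96 and 8.46 to 2.79, 2.78 and 2.79 FPKM, while Klf2, Zfp36 and Jund rose by 1.40, 1.08 and 0.87. Of 15 clock genes 5 fell and 3 rose. Ciart, a repressor of the clock, read 39.9, 39.8 and 33.8 FPKM in shCTRL and 4.13, 5.18 and 3.75 with shYap-1 (-2.86), the other falls including Cry1, Bhlhe40 and Nfil3 at -0.98, -0.93 and -0.99.

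**Figure D5:**
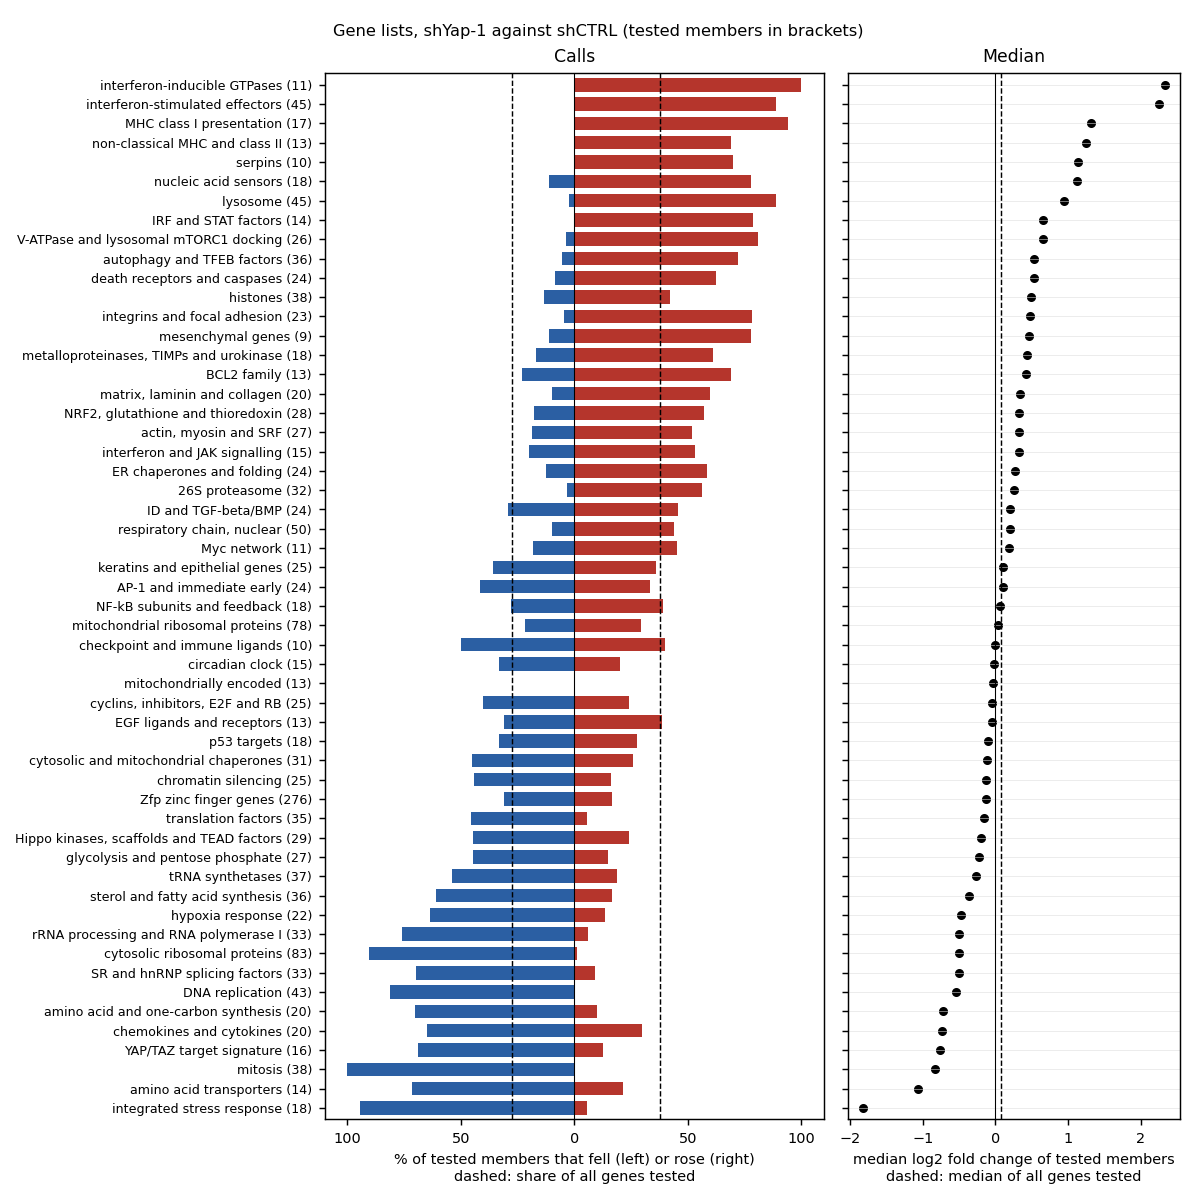
For each gene list with at least 8 members tested, the percent that rose and the percent that fell (adjusted p of 0.05) and the median log2 fold change (shYap-1 over shCTRL). The long noncoding RNA genes and the epithelial markers are left out. The dashed lines mark all genes tested, 37.6% that rose and 27.6% that fell; the GTPases at 100% risen and the mitosis list at 100% fallen are the extremes.

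The second hairpin gives the same genes a second set of values over the same 3 control libraries, so it is no independent comparison. With shYap-2 against shCTRL 73.7% of 10615 genes were called. Yap1 was at -2.13 with shYap-2 and -2.35 with shYap-1, Irf7 at 4.69 and 5.19, Trib3 at -3.58 and -3.43, Grn at 1.80 and 2.13, and Mthfd2 at -2.06 and -2.39. The difference between the hairpins takes its value from the hairpin libraries alone and was tested directly: 353 of 10733 genes (3.29%) differed. For Yap1 the difference was -0.22 (adjusted p = 0.0992). The genes given next were picked by their shYap-1 values, which by itself favours a larger change with shYap-1, so their differences are a description. For the 15 largest rises the difference was 0.36 to 0.69 on the log2 scale. Serpinb9b differed by 0.69 (adjusted p = 0.00846), Usp18 by 0.62 (adjusted p = 0.0241) and Oas1a by 0.56 (adjusted p = 0.00846).

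Of the 15 largest falls, Mthfd2 alone passed that test, at -0.33 (adjusted p = 0.021). Fads1, Fads2 and Fdps were lower with shYap-1 by -0.52, -0.50 and -0.38 (adjusted p = 0.00846 for each), and so were Hnrnpa1 at -0.41 and Adamts1 at -0.44. Atf7ip, picked in the same way, differed in the other direction, having risen by 1.12 with shYap-1 and by 2.22 with shYap-2 (difference -1.103, adjusted p = 0.0108). The count over all genes rests on the libraries used: 353 genes differed with all libraries, 1643 without shYap-1 replicate 2 and 80 without shYap-1 replicate 3.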

How the data were processed

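RNA of 4T1 cells was extracted with Trizol, enriched with oligo(dT), made into libraries with an NEBNext Ultra kit and sequenced on an Illumina instrument, per the labels' protocols. The authors deposited FPKM values with 2 decimals per gene. Among tools, the submitters' processing notes list StringTie 1.3.4, RSEM, HISAT2 2.1.0 and fastp 0.18.0 with the build mm10, and give no roles or order. The annotation, the counting rule, the use of strand and any filter are not given in the sources used here. FPKM hold no counts, so depth was estimated from the steps of low values and no count test was run.

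Genes with FPKM of at least 1 in 3 or more of the 6 libraries were tested on log2(FPKM + 1) with limma 3.58.1 (trend) in R 4.3.3, 3 shCTRL against 3 shYap-1 libraries with no covariate, and called at a Benjamini-Hochberg adjusted p of 0.05. A pseudocount of 1 understates the change of low genes. The hairpins were contrasted in a fit of all 9 libraries. The control values are the same in both tables (0 differ over 15926 shared genes). Lists are described by counts and medians. Named genes were Yap1 and Wwtr1, the 15 largest rises and 15 largest falls by log2 fold change and the 8 largest each way in FPKM (called, protein-coding, no gene model symbol, no overlap, mean of at least 5 FPKM in the higher group), genes under 0.5 FPKM in one arm and at least 5 in the other, up to 4 called members of each list in each direction, and members that went against their list. Some genes picked by this rule are not reported here. The comparison, its gene lists and its naming rule were chosen with earlier results of these data known. The fit was tested on simulated data. Identifiers were matched to GENCODE vM21 (16951 of 16962). Promoters come from RefSeq (GRCm38.p6), for 8464 of the 10641 distinct symbols tested. Python 3.11.15, numpy 2.4.6, pandas 2.3.3, scipy 1.17.1 and matplotlib 3.10.9 were used. The alternatives were another pseudocount, 2 other filters, 2 scalings, no variance trend, a replicate block, leaving out each library, a size threshold, a fit of 9 libraries and removal of the trend on GC content.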

Additional observations from a re-analysis of the deposited data

How the results depend on the processing

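Both counts of calls stayed within 1.5 times the reported 4002 and 2941 under every alternative that kept the threshold of 0.05 alone. Median-of-ratios scaling gave 3507 rises and 3427 falls, trimmed-mean scaling 3458 and 3485, and removal of the GC trend 3803 and 3806. Requiring a log2 fold change of at least 1 left 1354 genes, 944 higher and 410 lower. Yap1 stayed called, between -2.47 and -2.30. Of the 372 other named genes, 343 kept their call under every alternative that gave them a value. Eif3b, which rose by 0.27, reversed to -0.00233 (adjusted p = 0.965) with the GC trend removed; the cause was not tested. Of 57 list medians 49 kept their sign; the 8 exceptions all had medians within 0.12 of 0 on the log2 scale.

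Same-numbered shCTRL and shYap-1 libraries correlated at 0.354, 0.0439 and -0.252 in their deviations from the group means. Replicates 1 and 2 of shCTRL correlated best with their own number, while replicate 3 did not. The libraries of each arm also differ in their trend on GC content, so these correlations cannot settle whether the numbers pair. With the number as a replicate block 3917 genes rose and 2868 fell.

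The count of genes that differed between the hairpins, 353, was the least stable. It ranged from 80 to 1643 when 1 shYap-1 library was left out (80 without replicate 3 and 1643 without replicate 2), and was 141 with the replicate block. For named genes the count of 54 ranged from 16 to 146, and was 32 with the block. The cause was not tested. FPKM give no interval for counting error, so the depth limit of single low genes is unknown.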
